A study of Drosophila melanogaster with 2 samples.

Results

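DNA replication genes are the genes whose products license, unwind, copy and supply the replicating chromosome, and 34 of them were examined here out of 13945 protein-coding genes on the main chromosome arms. The members were the listed genes that the gene models contained. All 34 were found, 32 under their current symbol and 2 under an older one, with lat standing for Orc3 and CDC45L for Cdc45. The data were peak lists from chromatin immunoprecipitation with sequencing (ChIP-seq), made with an antibody against green fluorescent protein. The chromatin came from whole Drosophila melanogaster embryos collected at 0 to 24 h. They were of the strain klu-GFP, whose insertion expresses klu-eGFP, that is, Klumpfuss with the fluorescent tag eGFP. One field of the labels names klu itself as the antibody. The samples formed 1 group of 2 biological replicates from the same strain. No control was analysed here. The peaks therefore describe the tagged protein averaged over all tissues and stages of the embryo. Peak lists hold no expression values, so the tissue could not be checked against marker genes, and without read counts in them the sequencing depth is unknown.

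Klumpfuss (Klu) binds DNA through zinc fingers, belongs to the EGR/WT1 family and is best known from neuroblasts, the neural stem cells of the fly, and from sensory organs. A chromosome is made ready for copying when the origin recognition complex (ORC), Cdc6 and Cdt1 load the ring-shaped MCM2-7 helicase onto DNA, a step that geminin holds back. Cdc45 and the GINS complex then turn the loaded ring into an active helicase, and the sliding clamp PCNA keeps the polymerases on their template. In flies, many genes of this machinery are known targets of the factors DREF, which binds the DNA replication-related element (DRE), and E2F.

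Sequences of 6 members are given as examples. Windows around a summit and windows upstream of a start differ in kind and are not compared with each other. All are reference sequence from the RefSeq genome of BDGP release 6, the assembly of dm6, written 5′ to 3′. Capitals mark DRE letters (TATCGATA), its core (ATCGAT), E2F letters (TTTCCCGC, TTTGGCGC, TTTCGCGC or TTTGGCGG) and Klu/EGR letters (GTGGGCG or GTGGGTG), each on either strand. The first pair are windows of 75 bp either side of a pooled summit, which is base 76 in each. They are at chr3R:8264799-8264949, plus strand, upstream of Mcm2, and at chrX:15323345-15323495, plus strand, in an intron of Top1. Neither window holds any marked letters. Not all summits were like this, since E2F letters began 8 bp before the dpa summit and 57 bp after the geminin summit.
Mcm2: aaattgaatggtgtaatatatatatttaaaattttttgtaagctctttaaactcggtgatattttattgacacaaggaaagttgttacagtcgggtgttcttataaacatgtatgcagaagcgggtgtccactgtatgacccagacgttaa
Top1: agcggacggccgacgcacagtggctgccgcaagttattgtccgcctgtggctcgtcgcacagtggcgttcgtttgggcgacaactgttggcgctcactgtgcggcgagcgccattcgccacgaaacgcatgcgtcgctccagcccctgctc
The other 4 end at the base before the start of a gene that had no pooled peak within 1 kb. All 4 hold the DRE core, which was in 15 of the 34 members, so they do not represent all members without a peak. They are upstream of Psf1 (chr3L:1247678-1247816, minus strand), Top2 (chr2L:19453491-19453640, minus strand), RfC4 (chr3L:4136039-4136188, minus strand) and Gnf1 (chr3R:4906472-4906621, plus strand).
Psf1: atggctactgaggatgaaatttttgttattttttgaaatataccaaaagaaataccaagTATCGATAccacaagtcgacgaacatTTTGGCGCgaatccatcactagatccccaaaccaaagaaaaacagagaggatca
Top2: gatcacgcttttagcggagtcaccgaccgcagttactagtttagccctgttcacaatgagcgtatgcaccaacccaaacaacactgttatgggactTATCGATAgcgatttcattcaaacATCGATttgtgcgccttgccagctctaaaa
RfC4: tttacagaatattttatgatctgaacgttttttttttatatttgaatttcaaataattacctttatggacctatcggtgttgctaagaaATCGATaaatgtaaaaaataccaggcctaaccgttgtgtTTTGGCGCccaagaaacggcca
Gnf1: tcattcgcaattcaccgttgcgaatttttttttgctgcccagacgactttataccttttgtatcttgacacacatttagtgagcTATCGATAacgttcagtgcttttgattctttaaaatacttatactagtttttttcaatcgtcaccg
Psf1 and Top2 each carry a full DRE and came closest to the threshold among the members that missed it, as described below. RfC4 carries the core and an E2F match. Gnf1 carries a full DRE and had no peak of any rank within 1 kb.

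A gene was counted as having a peak when the summit of a peak in the authors' pooled list lay within 1 kb of one of its annotated starts. By that rule 6 of the 34 members (17.6%) had a peak, namely Mcm2, dpa, dup, geminin, RnrS and Top1, against 16.1% of all protein-coding genes. The share of all coding genes corresponds to 5.47 of 34, so the count of members lay 0.531 genes above it and was near the background. Of the 6 peaks, 4 were also present in the list of each replicate (Mcm2, dpa, RnrS and Top1), which is 11.8% of the members against 7.97% of all coding genes. In the shorter conservative list of the series, the same 6 members had a summit within 1 kb, against 13.1% of all coding genes. The replicate 1 list alone had a summit near 4 members (Mcm2, dpa, RnrS and Top1), against 8.96% of all coding genes. The replicate 2 list alone had one near 7 members, adding dup, Psf1 and Top2 to those 4, against 14.9% of all coding genes. In each of these lists the count of members lay above the background share by less than 2 genes.

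**Figure D1:**
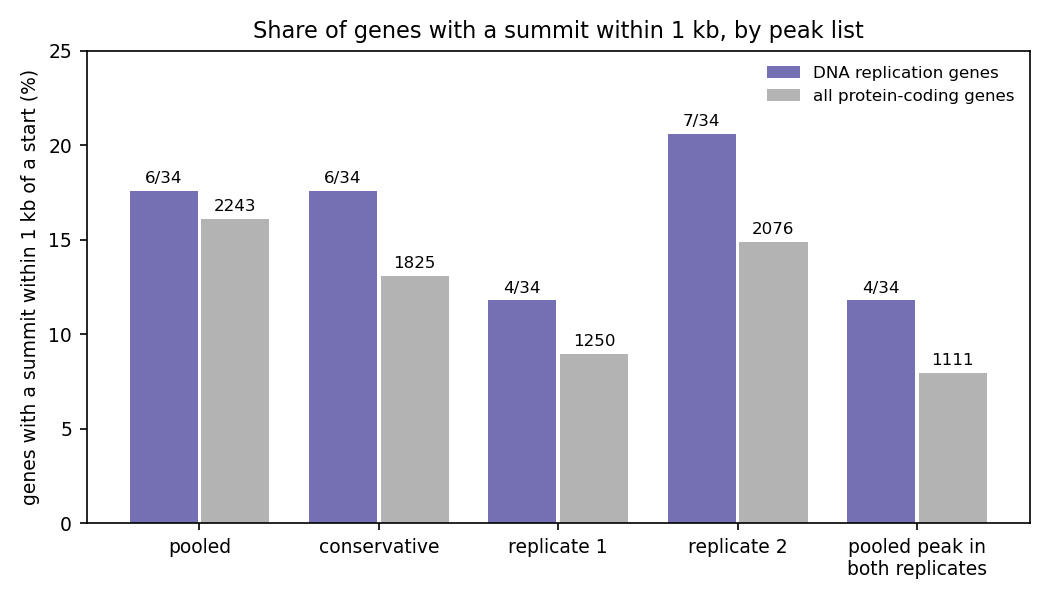
Percent of genes with a peak summit within 1 kb of an annotated start (vertical axis) in 4 deposited lists, and with their strongest pooled peak present in the lists of both replicates (last pair). Purple bars are the 34 DNA replication genes with the count above each bar, and grey bars are all 13945 protein-coding genes with their count. The members' share was 17.6% against 16.1% in the pooled list, and each purple bar stands above its grey bar by less than 2 genes.

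The 6 genes with a peak were spread unevenly over the steps of replication. Peaks lay at 2 of the 3 licensing genes (dup and geminin, but not Cdc6) and at 2 of the 6 MCM2-7 genes (Mcm2 and dpa). Nucleotide supply had 1 of 3 (RnrS) and the topoisomerases 1 of 2 (Top1). No pooled peak lay within 1 kb of any of the 6 ORC genes, the 6 genes of the Cdc45, GINS and Mcm10 group, the 5 clamp and clamp loader genes, or the 3 genes RPA2, RPA3 and Fen1. These groups are too small for their shares to be set apart from the 16.1% of all coding genes.

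The strongest of the 6 peaks lay at RnrS, which encodes the small subunit of ribonucleotide reductase, the enzyme that makes deoxyribonucleotides. Its summit was 214 bp upstream of the start, in the peak chr2R:11985541-11985642, between RnrS and the divergent gene CG34231. The deposited signal, which is a value per peak on an unstated scale, was 96.9 in replicate 1 and 184 in replicate 2, and 290 in the pooled list. Replicate 2 was the higher, by a factor of 1.90, against a median ratio of 1.62 over coding genes with a peak. The peak ranked 299 among 3087 on the main arms in the pooled list, above 90.3% of them. RnrL, the large subunit of the same enzyme, had no peak of any rank within 1 kb, and its nearest pooled summit lay 54186 bp away. The third gene of this group, Ts (thymidylate synthase), had only weak candidate peaks downstream of its start. Their signals were 10.5 in replicate 1, 19.9 in replicate 2 and 26.9 in the series list, at summits 218, 336 and 182 bp from the start.

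Mcm2 and dpa encode 2 of the 6 subunits of the replicative helicase ring, dpa being the fly Mcm4. The Mcm2 summit lay 96 bp upstream of its start in the peak chr3R:8264674-8265073, in the short region it shares with the divergent gene RPA1. That region separates the 2 starts by 519 bp, and the summit was 423 bp from the RPA1 start. RPA1, the large subunit of the single-strand binding protein RPA, is not among the 34, and the peak cannot be assigned to one gene of the pair. Signals at Mcm2 were 86.0 in replicate 1 and 98.6 in replicate 2, and 193 in the pooled list, with a rank of 605. The ratio of replicate 2 to replicate 1 was 1.15 here, against a median of 1.62 over coding genes with a peak. At dpa the signals were 64.5 in replicate 1 and 102 in replicate 2, and 165 in the pooled list, with a rank of 791. The dpa summit (peak chr2R:7499756-7500155) lay 79 bp upstream of the nearer of its 2 annotated starts. It was 189 bp downstream of the other start and thus in the annotated 5′ UTR, and 191 bp from the start of didum, which encodes a class V myosin. The divergent gene didum starts 2 bp from the 5′-most dpa start, so this peak cannot be assigned to one gene of the pair either.

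The other 4 MCM genes had only candidate peaks below the threshold. Mcm5 was the highest of them, with signals of 13.9 in replicate 1, 37.7 in replicate 2 and 46.5 in the series list, 160 bp upstream of its start. Mcm6 had 24.7 in replicate 1, 28.8 in replicate 2 and 31.9 in the series list, at summits 779, 394 and 689 bp upstream that need not be 1 peak. At Mcm3 the series list gave 20.9, and a pooled peak with a signal of 91.6 lay 1181 bp upstream, just outside the 1 kb limit. Mcm7 had 19.9 in the series list and no candidate within 1 kb in either replicate. The ring's 6 subunit genes thus ranged in series list signal from 19.9 to 193.

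The 2 licensing genes with a peak had the weakest of the 6. The gene dup (double parked) encodes the fly Cdt1. Its stronger peak, chr2R:15381143-15381542, had signals of 41.1 in replicate 1, 41.8 in replicate 2 and 79.1 in the pooled list, and only the replicate 2 list held it. The summit lay 355 bp upstream of dup but 106 bp from a start of SRPK, a kinase gene on the other strand, and within an intron of SRPK. A second pooled peak, chr2R:15380487-15380886, also with a signal of 79.1, lay 73 bp upstream of the second dup start and 37 bp from an SRPK start, and neither replicate list held it. When each summit was given to the gene with the nearest start only, dup had no peak and 5 members remained (14.7%, against 11.2% of all coding genes). At geminin, the inhibitor of Cdt1, the peak chr2R:6656223-6656622 had signals of 36.0 in replicate 1, 44.4 in replicate 2 and 74.2 in the pooled list. Its summit lay 22 bp upstream of the nearer geminin start and 171 bp downstream of the other, in the annotated 5′ UTR. Neither replicate list held it, although the conservative list did. Cdc6, which loads the helicase together with ORC and Cdt1, had a candidate of 29.6 in the series list and a pooled summit 4959 bp away.

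Top1 encodes the topoisomerase that relaxes DNA by single-strand breaks. Its peak (chrX:15323220-15323619) had signals of 85.7 in replicate 1, 64.4 in replicate 2 and 152 in the pooled list, and it was the only one of the 6 with the higher value in replicate 1. The summit lay 171 bp upstream of one of the 5 annotated Top1 starts but 3941 bp downstream of the 5′-most one, within an intron of the gene. No other protein-coding gene had a start within 1 kb of it. Counting only the most upstream start of each gene therefore removed Top1 and left 5 members (14.7%, against 14.5% of all coding genes). Top2, which cuts both strands, had signals of 2.36 in replicate 1, 44.3 in replicate 2 and 49.2 in the series list. The replicate 1 value belonged to a candidate 802 bp downstream of the Top2 start, whereas the other 2 summits lay 185 and 125 bp upstream.

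**Figure D2:**
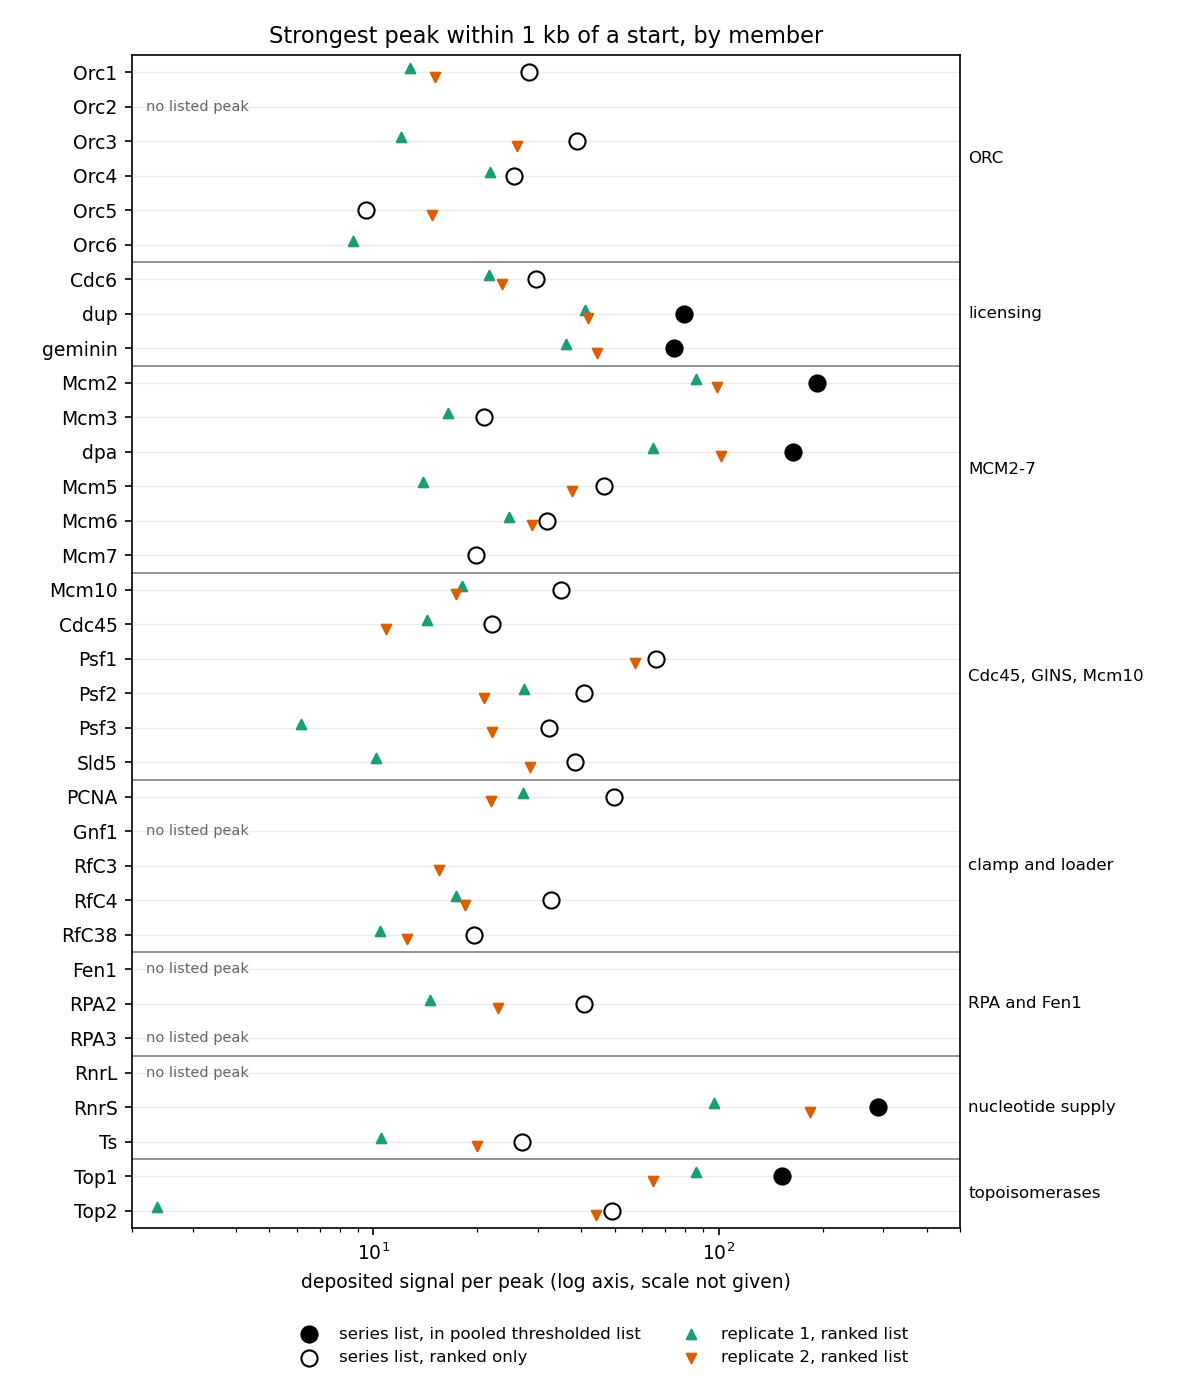
Deposited signal (log axis, scale not given) for each of the 34 members, grouped by role from top to bottom. Filled circles are peaks of the pooled list and open circles are the strongest candidate of the ranked series list within 1 kb; triangles are replicate 1 (pointing up) and replicate 2 (pointing down), taken at the same peak for the 6 filled members and as the strongest candidate within 1 kb for the others. The filled circles run from 74.2 at geminin to 290 at RnrS, and the open circles from 9.55 at Orc5 to 65.9 at Psf1.

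Taken as a set, the 6 peaks were close to the starts and ordinary in signal. Pooled signals lay between 74.2 and 290, and their median of 158 compares with 134 for the strongest peak of all coding genes with one. The median over all pooled peaks was 106, and 4 of the 6 stood above it. All 6 summits were upstream of the nearest annotated start of the gene, against 84.2% of coding genes with a peak. Those of dpa, geminin and Top1 were at the same time downstream of the 5′-most start, by 189, 171 and 3941 bp. The distance to the nearest start was within 250 bp for 5 of the 6, against 66.6% of coding genes with a peak. The median of this distance was 133.5 bp against 177 bp. The ratio of replicate 2 to replicate 1 signal had a median of 1.19 over the 6 (0.751 to 1.90), against 1.62 over 2172 coding genes with both values. Replicate lists were made separately, so this ratio also carries any difference in scale between them. Base composition at the summits varied widely, with a GC content within 50 bp of 24.8% at dup, 25.7% at RnrS, 33.7% at Mcm2, 42.6% at dpa, 50.5% at geminin and 62.4% at Top1. The median of 38.1% compares with 32.7% over the 1795 pooled summits within 1 kb of a coding start.

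The ranked lists hold all candidate peaks, also those below the threshold, and were read for the 28 members without a pooled peak. Within 1 kb, 27 of the 34 members (79.4%) had a candidate in the ranked series list, against 83.1% of all coding genes, so the presence of a candidate was again near the background. For the 21 members with a candidate and no pooled peak, the strongest signal lay between 9.55 and 65.9. Its median was 32.4, against 33.0 for coding genes in the same position. Over all 34 members, with 0 where there was no candidate, the median was 32.1, against 32.7 over all coding genes, and 15 members were at or above the median of all coding genes. The pooled list began at a score of 830 on a scale that ends at 1000. The member just inside was geminin, with a score of 872 and a signal of 74.2. The highest scores outside were 377 at Psf1 and 305 at Top2, so no member lay close below the threshold.

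**Figure D3:**
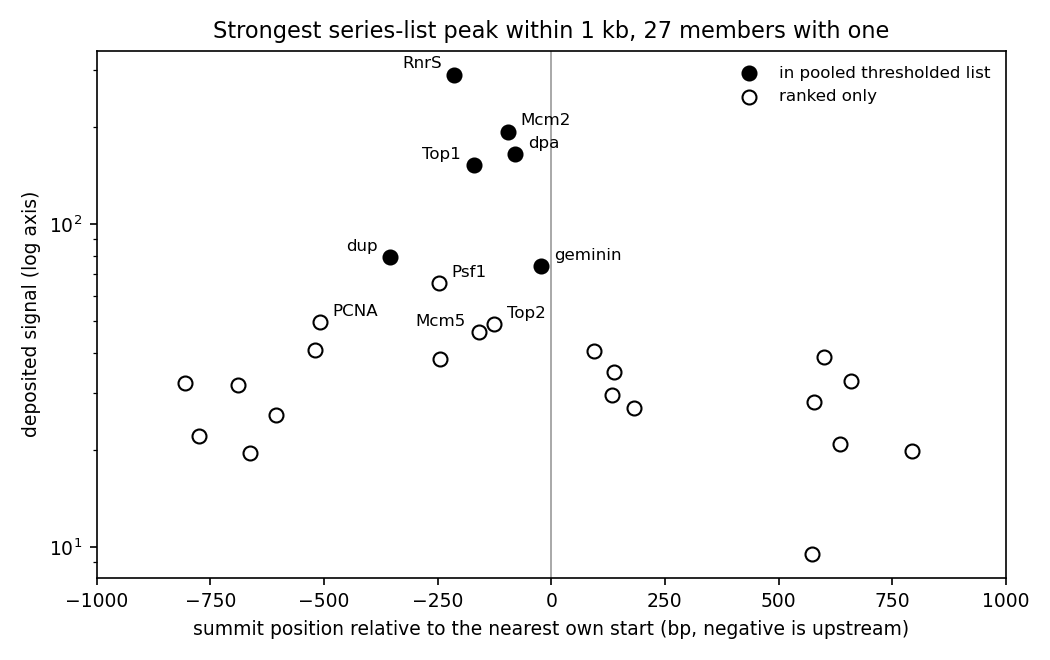
Position of the strongest series list summit relative to the nearest own start (horizontal axis, bp, negative is upstream) against its deposited signal (vertical log axis) for the 27 members with one within 1 kb. Filled points are the 6 members with a pooled peak and open points the 21 without. All filled points lie upstream, between 22 and 355 bp from the start, while the open points spread over both sides.

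Psf1 encodes a GINS subunit. Its candidate had no counterpart within 1 kb in replicate 1, a signal of 57.3 in replicate 2, where it was in the thresholded list, and 65.9 in the series list, 247 bp upstream of the start. Psf1 and Top2 were the only members in a replicate list but not in the pooled one, and both rested on replicate 2. The other GINS genes were lower. Psf2 had 40.6 in the series list, Sld5 had 38.4 and Psf3 had 32.4. Mcm10, which acts beside the helicase, had 34.9, and Cdc45 had 22.1 together with the most distant pooled summit of all members, 95220 bp away. Distances to the nearest pooled summit in this group were 2861 bp for Sld5, 6593 bp for Psf2, 11487 bp for Mcm10, 11937 bp for Psf3 and 42453 bp for Psf1.

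None of the 6 ORC genes had a summit within 1 kb in any thresholded list. Series list signals were 38.8 for Orc3, 28.2 for Orc1, 25.6 for Orc4 and 9.55 for Orc5, and each of these was below the lowest pooled peak of a member. Orc6 had a candidate in replicate 1 only, with a signal of 8.73, and Orc2 had none. Pooled summits lay 3755 bp from Orc4, 3928 bp from Orc1, 5623 bp from Orc5, 14669 bp from Orc6, 15808 bp from Orc3 and 17663 bp from Orc2. The peak near Orc4 had a signal of 440, and that near Orc5 had 959. Both were higher than any peak within 1 kb of a member, and both lay beyond the 1 kb limit.

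The clamp PCNA had a series list signal of 49.9, with the summit 509 bp upstream, and replicate 1 had 27.1 at 504 bp upstream. The strongest replicate 2 candidate, 22.0, was another peak, 639 bp downstream. Clamp loader genes were lower. RfC4 had 32.7 and RfC38 had 19.6 in the series list, RfC3 had a candidate in replicate 2 only (15.5), and Gnf1, the large subunit, had none. Of the single-strand binding protein, RPA2 had 40.8 and RPA3 had none, and the flap endonuclease gene Fen1 had none. Orc2, Gnf1, RnrL, Fen1 and RPA3 were thus the 5 members without a candidate within 1 kb in the ranked lists of the series or of either replicate. Nearest pooled summits lay 3556 bp from RPA2, 5277 bp from PCNA, 5786 bp from Gnf1, 6589 bp from RfC38, 8379 bp from Fen1, 26695 bp from RfC4, 35332 bp from RPA3 and 37061 bp from RfC3. Over the 28 members without a pooled peak the median distance was 7486 bp, against 15516 bp for coding genes without one, and 8 of the 28 (28.6%) had a pooled summit within 5 kb, against 18.5% of such coding genes.

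Features of gene layout were counted next. A divergent coding gene started within 1 kb of 21 of the 34 members (61.8%), against 35.2% of all coding genes. With such a neighbour, 5 of 21 members (23.8%) had a pooled peak, against 28.4% of coding genes with one. Without it, 1 of 13 members (7.69%) did, against 9.4% of coding genes. Within each layout the members' share was thus slightly below that of coding genes, although it was slightly above when layouts were not separated. Each further start of a gene widens the stretch in which a summit counts for it. Members with several annotated starts had a peak in 4 of 9 cases (44.4%), against 26.8% of such coding genes. Those with 1 start had one in 2 of 25 (8%), against 12.2%.

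Letters of known binding motifs were searched on both strands from 250 bases before to 50 bases after the 5′-most start. The DRE letters TATCGATA were in 9 members (26.5%), against 9.36% of all coding genes, and the core ATCGAT, which lies within them, was in 15 (44.1%), against 23.3%. E2F letters were in 18 members (52.9%), against 6.38%, and 7 members (Orc3, Orc5, Mcm5, Psf1, Sld5, RfC4 and Ts) had both E2F letters and the DRE core, against 1.6% of coding genes. E2F letters lay wholly within the first 50 transcribed bases of 13 members, against 134 of all coding genes (0.961%). These 13 were Orc1, Orc4, Orc5, Orc6, Mcm2, Mcm5, Mcm6, Mcm7, Mcm10, Cdc45, Sld5, RnrL and Ts, of which 1, Mcm2, had a pooled peak. That narrower window was chosen after the positions were seen. Klu/EGR letters GTGGGCG or GTGGGTG were in none of the 34, against 6.02% of coding genes. With 500 bases before the start they were in 4 (11.8%), against 12.7%, so the members were near the background in the wider window. GAGAGAG, the motif of the GAGA factor, was also in none, against 5.87%, and so was the Zelda motif CAGGTAG, against 1.64%. The M1BP core GGTCACAC was in 6 members (17.6%), against 7.7%. The BEAF-32 letters CGATA, which also lie within the DRE, were in 22 (64.7%), against 47.4%. An E-box (CACGTG) was in 1 (2.94%), against 4.2%, and the letters TATAAA of a TATA box were in 18 (52.9%), against 45.8%.

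The members with a DRE core and the members with a peak were different genes. None of the 15 members with the core had a pooled peak, against 19.1% of coding genes with it, and 6 of the 19 members without it had one (31.6%), against 15.2% of coding genes without it. Of the 18 members with E2F letters, 2 had a peak (Mcm2 and Top1, 11.1%), against 17.8% of such coding genes. Of the 16 without, 4 had one (25%), against 16% of such coding genes. For the letters TATAAA the split went the other way. Of the 18 members with them, 5 had a peak (27.8%), against 15.8% of such coding genes. Of the 16 without, 1 had one (6.25%), against 16.3%. These counts rest on 6 genes, cover only some of the motifs searched and were not tested. They also depend on the window, because the summits of dpa, geminin and Top1 lay at another start than the 5′-most one. With the promoter taken at the start nearest to the summit, the core was still in none of the 6. It was in 15 of the 34 members there, against 23% of coding genes. E2F letters were then in 3 of the 6 (Mcm2, dpa and geminin) and in 19 of the 34 members, against 6.38% of coding genes. With 500 bases before the 5′-most start, the core was in 1 of the 6, RnrS, against 50% of all members and 30.3% of all coding genes.

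**Figure D4:**
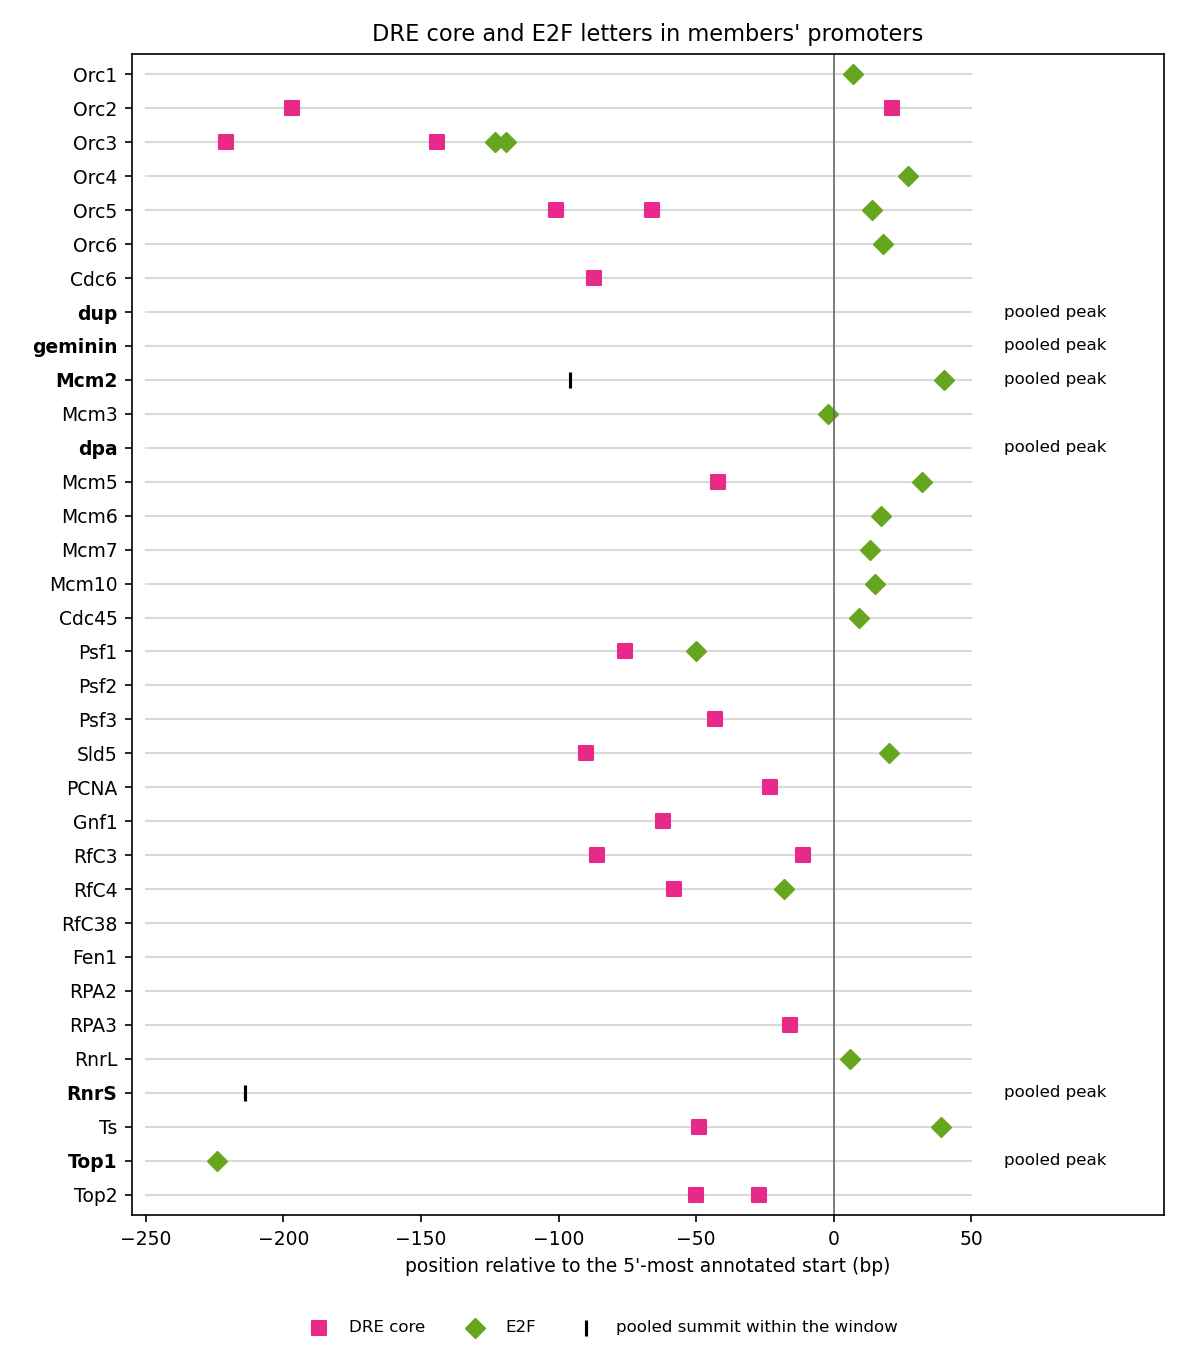
Positions of DRE core letters (pink squares) and E2F letters (green diamonds) relative to the 5′-most annotated start (horizontal axis, bp) in the 34 members, with grey lines for the searched window from 250 bases before to 50 bases after it. Bold names with the words "pooled peak" are the 6 members with one, and black ticks are pooled summits within the window, which were those of Mcm2 and RnrS. No pink square stands on a bold row.

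Around the summits themselves, within 50 bp, E2F letters were found at 1 of the 6 members, dpa, where the match began 8 bp before the summit. The share over the 1795 summits near coding starts was 1.84%. The DRE core was at none of the 6 summits, against 5.96%, and Klu/EGR letters were at none, against 4.79%. Within 100 bp, RnrS had a DRE core that began 77 bp before the summit, 1 of 6 against 12.5% of the 1795 summits. In the same window geminin, with E2F letters that began 57 bp after the summit, joined dpa, 2 of 6 against 3.45%. A match to these letters is a description of the sequence only.

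Further genes of the pathway were taken from a list of 28 other replication genes, of which 7 (25%) had a pooled peak, against 16.1% of all coding genes. The highest was at chif, the fly partner of the Cdc7 kinase that fires origins, with signals of 217 in replicate 1, 355 in replicate 2 and 592 in the pooled list. It lay 925 bp upstream of the nearest chif start but 1420 bp downstream of the 5′-most one. The summit was intronic and within the spans of both chif and Hyls1. This peak was higher than the peak of any of the 34 members. A second pooled peak, with a signal of 148, lay 118 bp upstream of a chif start. RPA1 followed through the peak it shares with Mcm2. SuUR, a suppressor of underreplication, had 77.9 in replicate 1, 127 in replicate 2 and 191 in the pooled list. PolD2, a subunit of DNA polymerase delta, had 35.5 in replicate 1, 92.8 in replicate 2 and 128 in the pooled list. Ctf4 (83.0) and dUTPase (75.7) were lower. For RPA1, SuUR, PolD1, Ctf4 and dUTPase another gene's start was nearer to the summit, so that only PolD2 and chif remained when a summit was given to its nearest gene. That is 7.14% of the list, below the 11.2% of all coding genes under the same rule. The count was 3 in the replicate 1 list alone (RPA1, chif and SuUR; 10.7%, against 8.96%) and 4 in the conservative list (14.3%, against 13.1%).

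A list of 12 genes that control transcription in S phase had 3 with a pooled peak (25%), against 16.1% of all coding genes. The peak at lin-52, a subunit of the Myb-MuvB complex, had signals of 215 in replicate 1, 356 in replicate 2 and 577 in the pooled list, but it lay 583 bp from lin-52 and 33 bp from the start of CG15771. Dp, the dimerisation partner of the E2F factors, had 156 in replicate 1, 166 in replicate 2 and 315 in the pooled list, 217 bp upstream of a Dp start. Dref, which encodes DREF, had 27.4 in replicate 1, 72.0 in replicate 2 and 94.5 in the pooled list, 69 bp downstream of its start. Of the replicate lists only that of replicate 2 held this peak, and the conservative list did not. The divergent gene RpL13 starts 84 bp from the Dref start. E2f1, E2f2 and Rbf had no pooled peak within 1 kb.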

How the data were processed

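ChIP-seq peak lists in dm6 were used as the authors deposited them. For the series there were ranked lists of all candidates, a pooled thresholded list (3126 peaks, 3087 on the 6 main arms) and a conservative one (2413 peaks). For replicates 1 and 2 there were ranked lists (119392 and 75248 peaks) and thresholded lists (1553 and 2585 peaks). The authors deposited a score per peak, from ranking by irreproducible discovery rate, and a signal per peak on an unstated scale. Not given in the sources used here: aligner, peak caller and settings. The ranked series list used (137692 peaks) was the one that held all 3126 pooled peaks.

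Starts of 13945 protein-coding genes came from Ensembl release 115 (BDGP 6.54), and sequences from the RefSeq genome of BDGP release 6. Distances ran from the summit to the nearest annotated start of the gene. Where a gene had several summits within 1 kb, the one with the highest signal was described, and replicate values came from the overlapping ranked peak or, for members without a pooled peak, from the strongest candidate within 1 kb. All members were accounted for, and up to 6 genes with a peak were named from each other list by highest signal. Members, lists and motifs were chosen with earlier results of these data known. No test was run, and all counts are descriptions beside the share of all coding genes. Distance and motif searches were tested on simulated data. Python 3.11.15, numpy 2.4.6 and matplotlib 3.10.9 were used.

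Alternatives were gene distances of 500 and 250 bp, the conservative list, each replicate's list alone, peaks above the median signal, ranked peaks at a score of 540 or more, the nearest start only, the most upstream start only, the nearest summit in place of the strongest, and other motif windows. The promoter of the start nearest to the summit was added after seeing the data.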

Additional observations from a re-analysis of the deposited data

How the results depend on the processing

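The count of DNA replication genes with a peak was 6 and lay between 4 and 7 over all alternatives run, with 4 in the replicate 1 list alone (11.8%, against 8.96% of all coding genes), 4 among peaks above the median signal (against 10.5%) and 7 in the replicate 2 list alone (20.6%, against 14.9%). It was 5 (14.7%) with the nearest start only (against 11.2%) and with the most upstream start only (against 14.5%). It was 6 (17.6%) within 500 bp (against 13.9%), within 250 bp (against 11.3%) and at the looser score, where the members lay below the background of 19.9%. The count of other replication genes with a peak, 7, ranged from 2 with the nearest start only (7.14%, against 11.2%) to 8 at the looser score (28.6%, against 19.9%). It was 4 in the conservative list (14.3%, against 13.1%) and 4 among peaks above the median signal (14.3%, against 10.5%). Within 250 bp it was 5 (17.9%, against 11.3%), and within 500 bp it was 6 (21.4%, against 13.9%). With the most upstream start only it was 6 (21.4%, against 14.5%). The replicate 1 list alone gave 3 (10.7%, against 8.96%), and the replicate 2 list alone gave 7 (25%, against 14.9%). The median distance of the members' summits was 87.5 bp with the nearest summit in place of the strongest peak, since dup then counted through its closer summit. Around the 6 summits the DRE core was found at 1 within 100 bp (against 12.5% of all summits near coding starts) and at 1 within 200 bp (against 22.2%). E2F letters were at 2 within 100 bp (against 3.45%) and at 3 within 200 bp (against 8.47%). Klu/EGR letters were in 4 promoters with 500 bases upstream (Orc5, Mcm6, Psf1 and RfC38; 11.8%, against 12.7% of all coding genes), none of them with a pooled peak. No paired analysis was possible because both replicates belong to 1 group.

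Limits apply to all of these counts. A list of 34 genes with 6 peaks cannot separate shares that differ by a few genes. Depth is unknown, so a missing peak says only that none passed the authors' threshold, and replicate 2 gave the longer thresholded list. Whole embryos of 0 to 24 h mix dividing and non-dividing cells, and a peak in few cells cannot be told from a weak peak in many. A shared promoter does not show which gene a peak belongs to.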

Other observations

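Members with a peak were spread over arms as 4 of 10 on 2R (40%, against 15.1% of coding genes on that arm), 1 of 6 on X (against 15.2%), 1 of 5 on 3R (against 16.8%), 0 of 9 on 2L (against 15.8%) and 0 of 4 on 3L (against 17.6%). This split was looked at after the values were seen and was not tested.

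Subunit genes of 1 enzyme and 1 complex differed in both replicates. Ribonucleotide reductase had 290 at RnrS (96.9 in replicate 1 and 184 in replicate 2) and no candidate at RnrL within 1 kb in any ranked list. RPA had 193 at RPA1 (86.0 and 98.6), 40.8 at RPA2 (14.6 and 23.0) and no candidate at RPA3. The summit counted for RPA1 was nearer to Mcm2, and the peak cannot be assigned to one gene of that pair. The RPA difference therefore holds only if the peak is counted for RPA1.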
